A study of Homo sapiens with 6 samples.

Results

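The genes described here are those that were read in VprBP knockdown cells and were absent, or nearly so, from control cells. They were chosen from the values themselves: a protein-coding gene entered when its estimated count, rounded, was at most 3 in each control sample and its mean over the knockdown samples was at least 20 CPM, a count scaled to the total count of its sample. The rule found 56 genes of the 15325 protein-coding genes in a table of 21494 genes. RNA was sequenced in 6 samples labelled as cells of G361, a human melanoma line, while the source name in the labels is LD611. Whether the cells of both groups are 1 and the same line was not tested, and a difference between lines cannot be told apart from the knockdown in any value below. Control sh denotes 3 samples with a control shRNA, labelled WT. VprBP sh denotes 3 samples with an shRNA against DCAF1, the gene of the VprBP protein, labelled DCAF1 Knockdown. Per the study's methods the shRNA against VprBP was delivered by lentivirus and cells were selected with puromycin, and it is the one shRNA that stands for the knockdown. How the control shRNA was delivered was not given in those methods. The labels do not say that the 3 samples of a group came from separate cultures, so each spread and each p-value below measures the difference between these samples only.

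VprBP, also known as DCAF1, is a substrate receptor of a CUL4 ubiquitin ligase and was also described as a kinase that phosphorylates histone H2A. A gene that is silent in a cell can be so because its promoter is methylated or packed in closed chromatin, because the activators of that lineage are missing, or because the DNA has been lost. Which of these applies was not tested, and DNA was not measured here. In a bulk sample, fewer cells of a type and less RNA per cell cannot be told apart.

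Total counts ran from 18195949 to 26883948 per sample, and the counts of DCAF1 itself in replicates 1, 2 and 3 were 688, 893 and 884 for Control sh and 681, 488 and 628 for VprBP sh. In CPM, VprBP sh replicate 1 lay at 37.4, within the Control sh values of 33.2 to 41.1, and the other VprBP sh samples lay at 24.7 and 23.4. In upper quartile normalized counts the groups did not overlap (789, 961 and 830 against 753, 502 and 477), but an exact two-sided permutation test gave p = 0.1, the smallest that 3 against 3 samples allow. The fitted log2 fold change of DCAF1 was -0.58 (SE 0.17, adjusted p = 0.0125 in edgeR's quasi-likelihood test over 16756 genes), short of the 2-fold limit used for a call, and scaling by library size alone gave -0.37 with an adjusted p of 0.0851. Of 10 melanocyte markers 4 (TYR, DCT, SOX10 and S100B) were not among the rows analysed here, and MLANA and TYRP1, which define the lineage, were under 1 CPM in every sample of both groups. The summed level of the 6 in the table was 49.7 to 57.8 CPM in Control sh and 28.9 to 30.9 CPM in VprBP sh. This fall lay in RAB38 (42.6 to 12.3 CPM on average), the one gene called of 4 tested, while MITF went from 7.25 to 11.6 CPM, and GPR143 from 1.84 to 3.82 CPM. PMEL had 38, 28 and 34 Control sh counts and 34, 37 and 46 VprBP sh counts. The summed level of 10 basal epithelial markers was 10628 to 11221 CPM in Control sh and 899 to 1027 CPM in VprBP sh. That of 13 urothelial luminal markers was 4319 to 4577 CPM and 6076 to 8068 CPM, with 6 of 12 tested called higher, KRT8 and KRT19 holding most of the sum, and 2 lower, UPK2 and UPK1B, the latter from 500, 641 and 709 counts to 0 in each VprBP sh sample. Of 9 tested mesenchymal markers outside the set, 7 were called lower in VprBP sh and 1 higher, and of 4 endothelial and 3 immune markers tested 3 and 2 were lower and 0 and 1 higher. The part of these cell type markers in the results below was not tested. The mitochondrial share of counts was 1.96% to 1.98% for Control sh and 4.10% to 4.48% for VprBP sh. Across all 16756 tested genes 46.4% were called (adjusted p under 0.05 and a fold change over 2), 24.5% higher and 22% lower in VprBP sh. Which direction held more calls depended on the scaling, with 4097 higher and 3681 lower here, 4077 and 4887 with DESeq2, and 3747 and 3938 with TMM factors.

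The 56 genes were at zero or close to it in Control sh. In all they drew 43 counts there, 22 in replicate 1, 19 in replicate 2 and 2 in replicate 3, and 34 of the 56 had no count in any Control sh sample. In VprBP sh they drew 83638, 103657 and 140508 counts, which is 0.460%, 0.526% and 0.523% of each sample. A count of 0 in a library allows up to 3 counts, which is 0.121 to 0.145 CPM in the Control sh samples, and this limit covers counting error only. Against that limit the genes without a Control sh count were at least 151-fold to at least 1876-fold higher in VprBP sh. These differences were fixed by the way the genes were chosen and were given no test. For the same reason the groups overlapped for none of the 56, while across all tested genes the groups did not overlap, with VprBP sh higher, for 42.2%, and in either direction for 79.5%.

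The mean level in VprBP sh ran from 20.3 CPM (SIM1) to 444 CPM (RARRES1), with a median of 52.5 CPM. Of the 56 genes 14 were at 100 CPM or more and 29 at 50 CPM or more, and the 10 highest held 51.5% of the summed level. These levels are in CPM and are not divided by gene length. By role, 13 genes encode transcription factors or their cofactors, 11 receptors or signalling proteins, 8 proteins of trafficking, cytoskeleton or adhesion, 7 secreted proteins, 6 enzymes, 4 channels or transporters, 3 cell cycle inhibitors or DNA repair proteins, and 4 other proteins. The 7 secreted proteins held 26.8% of the summed level and the 13 transcription factors 17.98%. In what follows, 3 values in a row are those of replicates 1, 2 and 3.

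**Figure D1:**
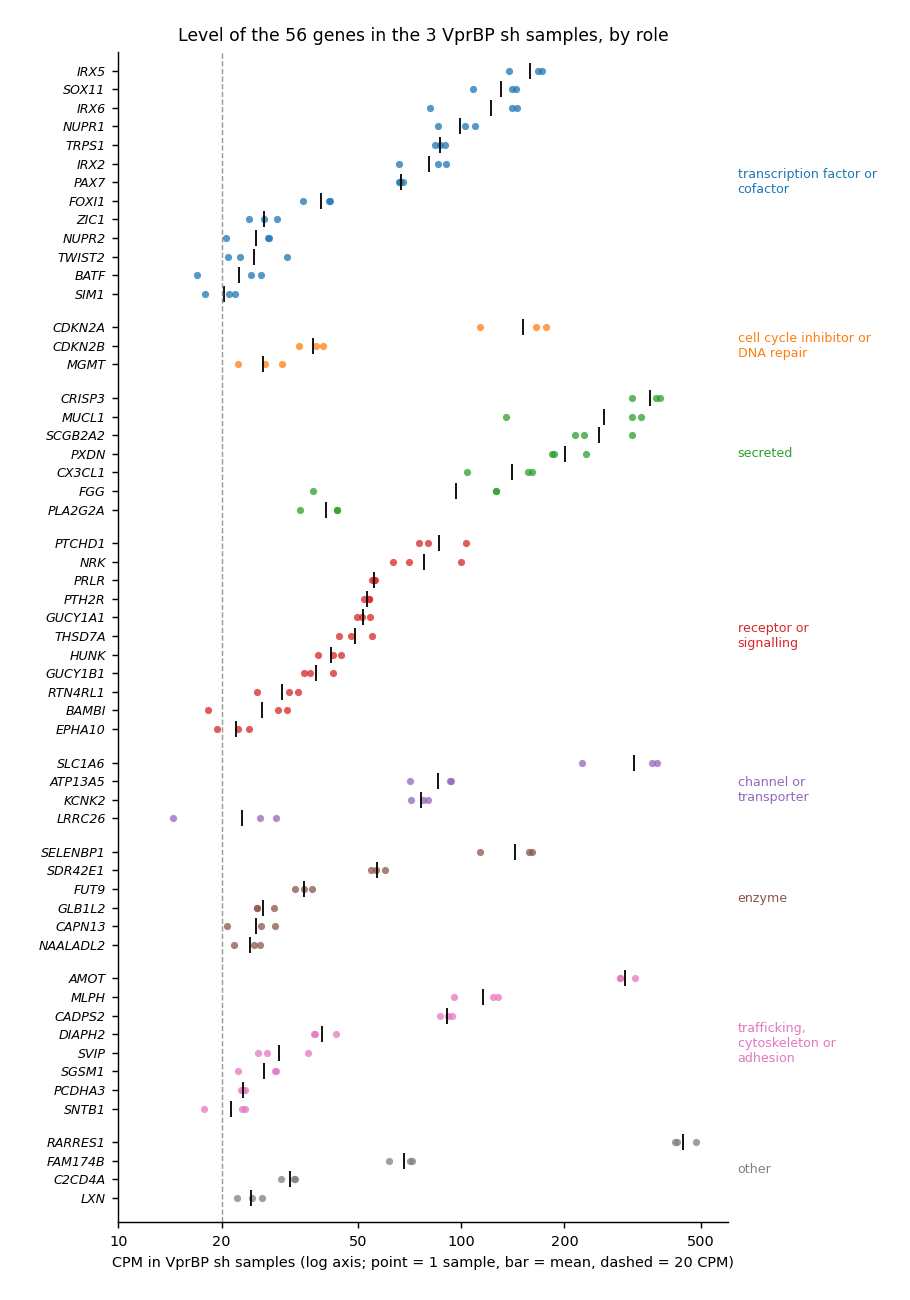
Each row is 1 of the 56 genes, grouped by role, and the log axis gives its level in CPM, with a point for each of the 3 VprBP sh samples and a bar for their mean. The secreted proteins include 3 of the 6 highest genes, and RARRES1 has the highest mean, 444 CPM.

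Among the transcription factors, the Iroquois homeobox genes stood out by number, with 3 members, IRX2, IRX5 and IRX6, which pattern embryonic tissues. IRX5 was at 138, 172 and 168 CPM in VprBP sh and had 0 counts in each Control sh sample, at least 1182-fold higher. IRX6 was at 81.3, 140.5 and 146 CPM against 1, 0 and 0 counts in Control sh. IRX2 was at 65.9, 90.1 and 85.6 CPM against 0 counts, at least 598-fold higher. All 3 were lowest in VprBP sh replicate 1.

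SOX11, an SRY-box factor of neural development, was at 108, 144 and 140.3 CPM in VprBP sh and had no Control sh count. TRPS1, a GATA-type zinc finger repressor, was at 89.96, 83.8 and 87.00 CPM against 0, 1 and 0 counts. NUPR1, a small nuclear protein induced by stress, was at 85.4, 109 and 103 CPM against 2, 3 and 0 counts, the most Control sh counts of any of the 56. Its paralog NUPR2 was at 20.7, 27.5 and 27.3 CPM against 0 counts, so both genes of this small family were in the set. PAX7, a paired box factor of neural crest and muscle stem cells, was nearly level across VprBP sh at 66.2, 65.8 and 67.8 CPM. The remaining factors were lower, between 20.3 and 39.0 CPM on average: FOXI1, a forkhead factor of ionocytes, ZIC1, a zinc finger factor of the dorsal neural tube, TWIST2, a basic helix-loop-helix factor of mesenchyme, BATF, an AP-1 partner best known in lymphocytes, and SIM1, a factor of hypothalamic neurons. Of the 13 factors and cofactors 10 had no Control sh count.

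The cell cycle inhibitors CDKN2A and CDKN2B are neighbours on chromosome 9. CDKN2A encodes INK4A, which blocks CDK4 and CDK6, and, in another frame, ARF, and CDKN2B encodes INK4B. CDKN2A was at 113, 176 and 165 CPM in VprBP sh and CDKN2B at 33.6, 39.4 and 37.8 CPM, and both had 0 counts in each Control sh sample, at least 1126-fold and at least 274-fold higher. MGMT, which removes alkyl groups from guanine in DNA, had 0, 1 and 0 counts in Control sh and was at 22.3, 29.9 and 26.8 CPM in VprBP sh.

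The secreted proteins included several of glandular epithelium. CRISP3, a cysteine-rich secretory protein of exocrine glands, was at 315, 379 and 370.5 CPM in VprBP sh against 0, 0 and 1 counts in Control sh. MUCL1, a small mucin of breast epithelium, was at 135, 314 and 335 CPM against 1, 1 and 0 counts. SCGB2A2, the secretoglobin known as mammaglobin, was at 315, 214 and 228 CPM against 0 counts and had the highest lower bound of the set, at least 1876-fold. MUCL1 and SCGB2A2 differed in opposite directions between the VprBP sh samples, MUCL1 being lowest and SCGB2A2 highest in replicate 1.

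PXDN, the peroxidase that crosslinks collagen IV in basement membranes, was at 231, 184 and 187 CPM with no Control sh count. CX3CL1, the membrane-bound chemokine fractalkine, was at 104, 157 and 161 CPM, also with none. FGG, the gamma chain of fibrinogen, was at 36.9, 126 and 126 CPM against 2, 0 and 0 counts, so replicate 1 held less than the other VprBP sh samples by 3.42-fold. PLA2G2A, a secreted phospholipase, was lower, at 40.3 ± 5.51 CPM (SD, n = 3).

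Of the 11 receptor and signalling genes 9 had no Control sh count, and none had a mean of 100 CPM or more in VprBP sh. PTCHD1, a patched-domain membrane protein, was at 103, 75.1 and 80.1 CPM, and NRK, a kinase of the germinal center kinase family, at 99.6, 70.7 and 63.1 CPM, both highest in replicate 1. PRLR, the prolactin receptor, was at 55.01, 55.9 and 55.7 CPM and varied least between replicates of all 56 genes, with a coefficient of variation of 0.837%. GUCY1A1 and GUCY1B1, the alpha and beta subunits that pair to form the nitric oxide receptor soluble guanylate cyclase, were at 54.4, 51.4 and 49.5 CPM and 42.4, 34.7 and 36.1 CPM. Neither subunit had a Control sh count. The others were PTH2R, a receptor of the parathyroid hormone family (53.2 CPM on average), THSD7A, a thrombospondin-domain membrane protein (48.9 CPM), HUNK, an SNF1-related kinase (41.7 CPM), RTN4RL1, a relative of the Nogo receptor (30.1 CPM), BAMBI, a decoy receptor of TGF-beta signalling (26.2 CPM), and EPHA10, an ephrin receptor without kinase activity (21.98 CPM).

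SLC1A6, a glutamate transporter of Purkinje neurons, was the highest of the 4 channels and transporters, at 225, 373 and 360.03 CPM in VprBP sh against 2, 0 and 0 counts. ATP13A5, a P-type ATPase, was at 70.9, 92.8 and 93.7 CPM against 0 counts. KCNK2, a tandem-pore potassium channel, was at 71.6, 79.95 and 77.2 CPM against 2, 0 and 0 counts. LRRC26, an auxiliary subunit of BK potassium channels in secretory epithelium, was at 14.4, 28.8 and 25.8 CPM against 1, 0 and 0 counts. All 4 were lowest in VprBP sh replicate 1.

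SELENBP1, a methanethiol oxidase, led the enzymes at 114, 160.4 and 158 CPM in VprBP sh with no Control sh count. The other enzymes were SDR42E1, a short-chain dehydrogenase (56.9 CPM), FUT9, a fucosyltransferase that makes the Lewis x antigen (34.8 CPM), GLB1L2, a relative of beta-galactosidase (26.4 CPM), CAPN13, a calpain protease (25.2 CPM), and NAALADL2, a relative of glutamate carboxypeptidase (24.2 CPM). Of these only SDR42E1 had any Control sh count (0, 2 and 0 counts).

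Among the proteins of trafficking, cytoskeleton and adhesion, AMOT, an angiomotin that holds YAP at cell junctions, was at 321, 289.8 and 291 CPM against 1, 0 and 0 counts. MLPH, the melanophilin that links melanosomes and other vesicles to myosin, was at 95.1, 124 and 128 CPM with no Control sh count. CADPS2, which primes dense-core vesicles, was at 86.5, 94.2 and 91.4 CPM against 0, 1 and 0 counts. The remaining 5 were DIAPH2, an actin-nucleating formin (39.2 CPM), SVIP, which binds the segregase VCP (29.5 CPM), SGSM1, a regulator of Rab and Rap GTPases (26.6 CPM), PCDHA3, a clustered protocadherin (23.1 CPM), and SNTB1, a syntrophin of the dystrophin complex (21.4 CPM). PCDHA3 overlaps 14 other protein-coding records of the same strand that share its last exons, so its estimated count is uncertain.

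RARRES1, a retinoid-responsive gene, was the highest of all, at 483, 427 and 421 CPM in VprBP sh against 1, 0 and 0 counts in Control sh. LXN, its neighbour and the inhibitor of carboxypeptidase A, was at 26.3, 24.5 and 22.2 CPM against 0 counts. Across VprBP sh replicates both were highest in replicate 1. FAM174B, a membrane protein, was at 61.8, 71.1 and 72.01 CPM against 1, 2 and 1 counts, and C2CD4A, a nuclear protein induced by inflammation, was at 32.6, 29.7 and 32.7 CPM against 0, 1 and 0 counts.

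Genes near the limits of the rule gave values close to those across it. Just inside the limit of 20 CPM were SIM1 at 20.3 CPM, SNTB1 at 21.4 CPM and EPHA10 at 21.98 CPM, and just outside it were RGMA at 18.5 CPM and GLRB at 17.7 CPM. Just inside the limit of 3 counts were NUPR1 with 2, 3 and 0 counts, EPHA10 with 1, 3 and 0 counts and FAM174B with 1, 2 and 1 counts. Just outside it was NLRP2, with 4, 0 and 0 counts in Control sh and 192 CPM on average in VprBP sh, followed by SBK1 with 4, 0 and 0 counts and 62.4 CPM and by PDE9A with 0, 0 and 4 counts and 21.5 CPM. A single count in a single library thus kept NLRP2 out, a gene that would have ranked among the 10 highest.

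Levels of different genes can be compared only per length, here CPM per kilobase of the union of exons. On that scale RARRES1 (219) stayed first, followed by SCGB2A2 (167), CRISP3 (157), MUCL1 (65.8), IRX5 (56.01) and SLC1A6 (41.7), and 14 of the 20 highest genes by CPM were also among the 20 highest per kilobase. NUPR2, whose exons span 0.620 kb, rose from rank 46 by CPM to rank 9 per kilobase. AMOT fell from rank 4 to rank 11.

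The 3 VprBP sh samples did not hold these genes equally. Replicates 2 and 3 were close, with a median absolute log2 difference of 0.05 and a maximum of 0.16 over the 56 genes. Replicate 1 was the lowest of the 3 samples for 36 genes and the highest for 18. Among the 8252 other protein-coding genes at 20 CPM or more, replicate 1 was the lowest for 42.6% and the highest for 49.2%, against 64.3% and 32.1% of the 56. Replicate 1 was more than 1.5-fold below the mean of replicates 2 and 3 for 8 genes, FGG (3.42-fold), MUCL1 (2.41-fold), LRRC26 (1.90-fold), IRX6 (1.76-fold), BAMBI (1.65-fold), SLC1A6 (1.63-fold), CX3CL1 (1.53-fold) and CDKN2A (1.51-fold), which is 14.3% of the 56 against 3.02% of the other genes. It was more than 1.5-fold above for none, the nearest being NRK at 1.49-fold, TWIST2 at 1.43-fold and SCGB2A2 at 1.43-fold. The median coefficient of variation was 12.1% for the 56 genes and 8.22% for the others. With 3 samples these shares were given as a description and no test was made. VprBP sh replicate 1 was also the VprBP sh sample with the highest DCAF1 level, given above, and the part of that in the replicate difference was not tested.

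**Figure D2:**
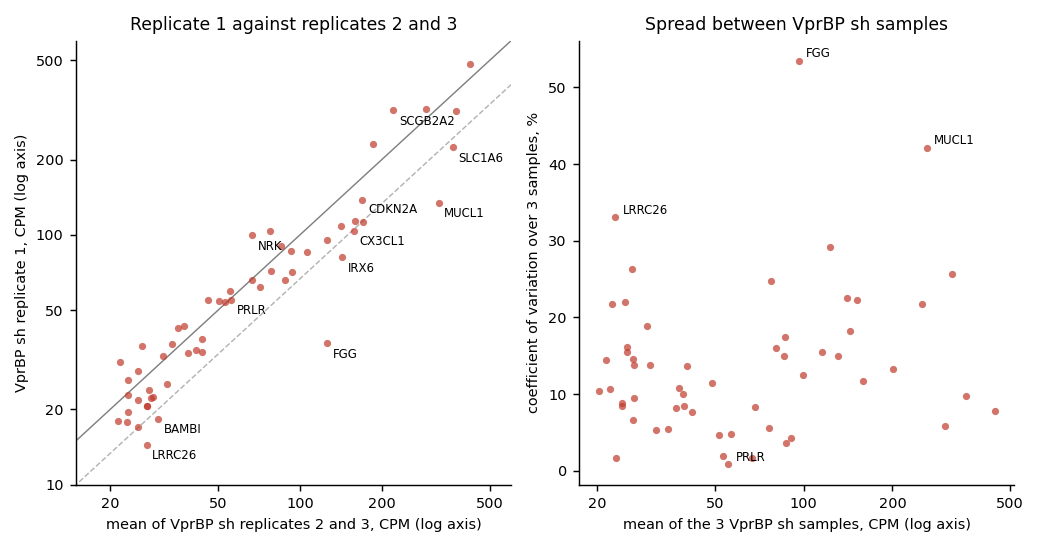
Left, level of each of the 56 genes in VprBP sh replicate 1 against the mean of replicates 2 and 3, both in CPM on log axes, with a solid line at equality and a dashed line at 1.5-fold lower. Right, coefficient of variation over the 3 VprBP sh samples against the mean level, with FGG at 53.5% and PRLR at 0.837%.

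The 56 genes were spread over 20 of the chromosomes, with 6 on chromosome 2, 5 each on chromosomes 1, 3 and 16, 4 each on chromosomes 5 and X, and none on chromosomes 13, 18, 20 and Y. Per 100 protein-coding genes in the table, the X chromosome (0.75) and chromosome 16 (0.71) held most and, of the chromosomes with any, chromosome 19 fewest (0.087). They were long genes, with a median span of 65.9 kb against 32.4 kb for all protein-coding genes, but similar in exon length (5.73 kb against 5.11 kb). By GENCODE annotation 19 of the 56 overlapped no other gene. Of the rest, 4 overlapped a protein-coding gene on the same strand (CADPS2, DIAPH2, PCDHA3 and LRRC26) and 6 lay opposite a protein-coding gene (RARRES1, SLC1A6, ATP13A5, ZIC1, LXN and SNTB1). The labels and the methods name different library kits, and whether the counting used strand was not given in the sources used here, so reads of overlapping genes cannot be told apart.

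Within 1 Mb of each other there were 4 pairs, each with no other protein-coding gene of the table between its members. CDKN2A (chr9:21967752-21995301, hg38) and CDKN2B (chr9:22002903-22009305) lay 7.60 kb apart on the minus strand of chromosome 9. GUCY1A1 (chr4:155666726-155737059) and GUCY1B1 (chr4:155758992-155807811) lay 21.9 kb apart on the plus strand of chromosome 4. LXN (chr3:158645822-158672648) and RARRES1 (chr3:158696892-158732489) lay 24.2 kb apart on the minus strand of chromosome 3. IRX5 (chr16:54930865-54934485) and IRX6 (chr16:55324203-55330756) lay 390 kb apart on the plus strand of chromosome 16. A limit of 2 Mb joined FGG to the GUCY1A1 pair and added PAX7 with PLA2G2A on chromosome 1 and MLPH with TWIST2 on chromosome 2, giving 6 groups.

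RefSeq promoter sequences were given for 40 of the 56 genes, or 71.4%. Since this is under 80%, no share of promoters with a motif or with many CpG sites was computed for the set. To show the starts of adjacent members, the 100 bases just upstream of the gene's annotated exons are printed for 3 of the pairs and for SCGB2A2, 5′ to 3′ on the gene's own strand, with each CpG dinucleotide, the site of DNA methylation, in capitals (RefSeq, GRCh38.p14).
CDKN2A: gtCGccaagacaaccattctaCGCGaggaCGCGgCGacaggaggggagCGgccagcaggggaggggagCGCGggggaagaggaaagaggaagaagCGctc
CDKN2B: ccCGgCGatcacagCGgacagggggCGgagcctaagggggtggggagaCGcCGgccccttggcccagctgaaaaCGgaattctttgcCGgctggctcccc
GUCY1A1: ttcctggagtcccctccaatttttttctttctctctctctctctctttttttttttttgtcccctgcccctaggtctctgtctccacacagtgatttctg
GUCY1B1: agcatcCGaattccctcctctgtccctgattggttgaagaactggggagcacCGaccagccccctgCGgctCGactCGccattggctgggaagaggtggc
RARRES1: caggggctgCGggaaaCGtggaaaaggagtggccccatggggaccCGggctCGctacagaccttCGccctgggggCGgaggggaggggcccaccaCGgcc
LXN: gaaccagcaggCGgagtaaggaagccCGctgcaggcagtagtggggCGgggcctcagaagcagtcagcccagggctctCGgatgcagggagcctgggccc
SCGB2A2: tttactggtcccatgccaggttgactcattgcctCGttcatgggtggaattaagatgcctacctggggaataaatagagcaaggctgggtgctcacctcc
The windows are chr9:21995325-21995424 and chr9:22009306-22009405 on the minus strand, chr4:155666626-155666725 and chr4:155758892-155758991 on the plus strand, chr3:158732490-158732589 and chr3:158672649-158672748 on the minus strand, and chr11:62270058-62270157 on the plus strand. CDKN2A held 10 CpG sites in this window and CDKN2B 8, at a GC content of 67% and 70%. RARRES1 held 7 and LXN 4, at 73% and 69%. GUCY1B1 held 5, at 62%, GUCY1A1 held 0, at 44%, and SCGB2A2 held 1, at 51%. The windows do not lie at the same place relative to the RefSeq start: they end 122 bases before it for GUCY1A1, 32 for RARRES1, 29 for GUCY1B1 and 0 for the others, so these numbers cannot be compared as promoters. The RefSeq promoter windows, from 250 bases before the start to 50 after it, held 28 CpG sites for CDKN2A and for RARRES1, 25 for CDKN2B, 17 for GUCY1B1, 9 for LXN, 6 for SCGB2A2 and 5 for GUCY1A1. Both CDKN2A windows lie at the outer end of this 27.55 kb gene. They show 1 start, and whether INK4A or ARF is transcribed from it was not examined. Counts were per gene and do not tell INK4A from ARF transcripts. Methylation was not measured here.

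Protein-coding genes next to the 56 were examined because the rule did not use them. Within 500 kb of a member there were 453 other protein-coding genes, of which 413 were tested. In VprBP sh 159 of them, or 38.5%, were called higher and 59, or 14.3%, lower, against 22.7% and 21.7% of all 13885 protein-coding genes tested. Their median log2 fold change was 0.54, and that of all protein-coding genes was 0.06. The share called higher was 52.7% of 112 tested genes within 100 kb, 32.7% of 113 between 100 and 250 kb, and 33.5% of 188 between 250 and 500 kb. PCDHA3, which lies in the protocadherin clusters, contributed 34 of the 159, and without its neighbours the 3 shares were 49.5%, 30.3% and 29.8%. In bulk counts of overlapping genes reads may be shared, and leaving out neighbours that overlap a member gave 149 higher of 399 tested, or 37.3%. Each neighbour was counted for its nearest member only, and 50 of the 56 genes were the nearest member of some neighbour.

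Some of these neighbours were also near zero in Control sh. Of the 129 within 100 kb, 31, or 24.0%, stayed at 3 counts or fewer throughout Control sh, against 4.39% of all 15269 protein-coding genes outside the set. Between 250 and 500 kb the share was 5.50%.

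**Figure D3:**
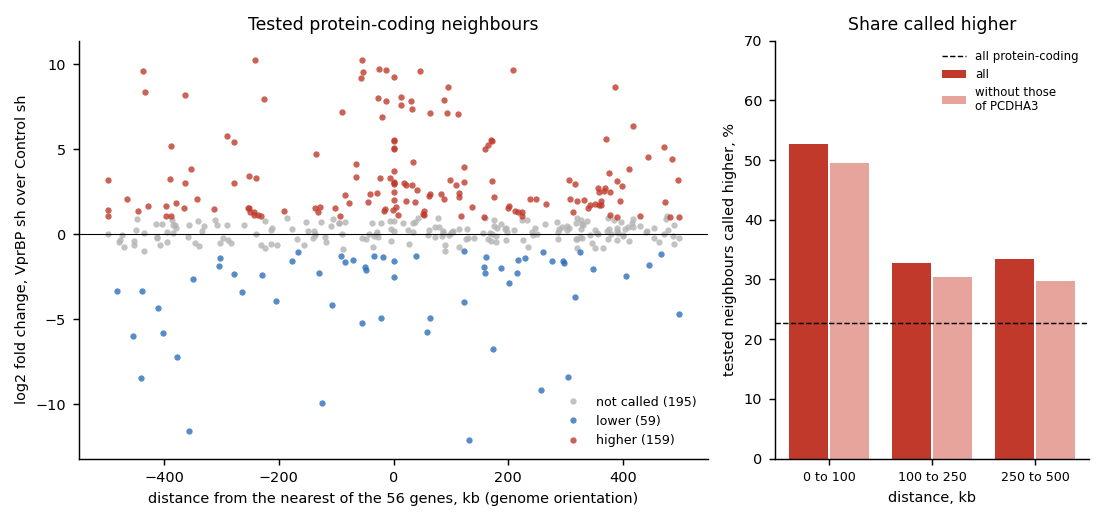
Left, log2 fold change (VprBP sh over Control sh) of each of the 413 tested protein-coding neighbours against its distance in kb from the nearest of the 56 genes, coloured by call. Right, percent of tested neighbours called higher in 3 distance bins, for all and without the neighbours of PCDHA3, with a dashed line at 22.7% for all protein-coding genes; the share is highest within 100 kb.

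On chromosome 9 several genes in a row were near zero in Control sh. MTAP, which salvages methylthioadenosine and lies 30.1 kb from CDKN2A, had 3, 2 and 6 Control sh counts and 864, 858 and 1205 VprBP sh counts (log2 fold change 7.86, SE 0.21, adjusted p = 2.18e-09). DMRTA1, a doublesex-related factor 438 kb beyond CDKN2B, had 0 counts in each Control sh sample and 82, 96 and 138 in VprBP sh, at least 35.9-fold higher (adjusted p = 2.68e-06). Of 8 tested genes of band 9p21 outside the set, 4 were called higher, MTAP, DMRTA1, ELAVL2 and TUSC1, and 1, HACD4, lower. ELAVL2, a neuronal RNA-binding protein, had 3, 1 and 3 Control sh counts and 150, 112 and 177 VprBP sh counts, and TUSC1 had 156, 74 and 59 Control sh counts and 445, 666 and 888 VprBP sh counts. On the other side of CDKN2A, KLHL9, an adaptor of a CUL3 ubiquitin ligase, had 565, 793 and 917 Control sh counts and 737, 639 and 837 VprBP sh counts (log2 fold change -0.17, SE 0.14, adjusted p = 0.309) and was not called, nor were MLLT3 and FOCAD. At or near zero in Control sh were the consecutive listed genes MTAP, CDKN2A, CDKN2B, DMRTA1 and ELAVL2, and TUSC1 and KLHL9 beyond them were read in every sample. IFNE, between KLHL9 and MTAP, was too low to be tested, at 11, 7 and 4 Control sh counts and 0, 2 and 3 VprBP sh counts.

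On chromosome 4 every tested neighbour of FGG, GUCY1A1 and GUCY1B1 was called higher, 5 of 5, 1 of 1 and 2 of 2. FGA and FGB, which encode the alpha and beta chains of fibrinogen, had 0 counts in each Control sh sample and 11, 26 and 43 and 19, 14 and 32 in VprBP sh, at least 8.72-fold and at least 7.29-fold higher (adjusted p = 2.79e-04 and adjusted p = 1.27e-04). LRAT, the acyltransferase that stores retinol, and TDO2, which breaks down tryptophan, also had none in Control sh, against 75, 106 and 148 (at least 37.1-fold, adjusted p = 3.76e-06) and 78, 112 and 124 (at least 36.1-fold, adjusted p = 3.74e-06). MAP9, a spindle protein, had 21, 3 and 7 Control sh counts and 630, 551 and 779 VprBP sh counts (log2 fold change 5.81, SE 0.37, adjusted p = 5.39e-07). PLRG1, a splicing factor, and CTSO, a lysosomal protease, were well read in Control sh and rose less, by 1.36 and 2.44 on the log2 scale. All 3 fibrinogen chains were thus read in VprBP sh and had 2 counts in all in Control sh.

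Next to LXN and RARRES1 none of the 5 tested neighbours was called higher. GFM1, which overlaps LXN on the opposite strand, had 999, 971 and 1158 Control sh counts and 1281, 1123 and 1501 VprBP sh counts (log2 fold change 0.18, SE 0.11, adjusted p = 0.155), and MFSD1, which overlaps RARRES1, had 516, 537 and 577 Control sh counts and 936, 901 and 1259 VprBP sh counts (log2 fold change 0.77, SE 0.10, adjusted p = 5.32e-05), higher by less than the 2-fold limit. MLF1 and IQCJ-SCHIP1 were called lower, with log2 fold changes of -1.28 and -2.38. The tested neighbours of this pair were read in every sample of both groups.

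Near IRX6, MMP2, a matrix metalloprotease, fell from 140, 257 and 311 counts in Control sh to 5, 3 and 6 in VprBP sh (log2 fold change -5.76, SE 0.36, adjusted p = 4.43e-07), and CES1, a carboxylesterase 472 kb away, rose from 30, 36 and 39 to 517, 1567 and 2153 (log2 fold change 5.12, SE 0.43, adjusted p = 3.14e-06). CES1, like IRX6, was lowest in replicate 1 of the VprBP sh samples.

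The secretoglobin cluster around SCGB2A2 moved in both directions. SCGB2A1 and SCGB1D2 had 0 counts in each Control sh sample and 63, 75 and 94 and 109, 89 and 135 in VprBP sh, at least 26.6-fold and at least 38.4-fold higher (adjusted p = 4.79e-06 and adjusted p = 3.06e-06). SCGB1A1, the secretoglobin of airway club cells, 132 kb from SCGB2A2, had 554, 422 and 561 Control sh counts and 0, 0 and 0 VprBP sh counts, at least 160.5-fold lower (adjusted p = 1.76e-07). Further out the fatty acid desaturases FADS1, FADS2 and FADS3 fell by 8.49, 5.81 and 7.26 on the log2 scale, so that of 37 tested neighbours of SCGB2A2 6 were called higher and 9 lower.

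CASP14, a caspase of keratinocyte differentiation 26.5 kb from SLC1A6, rose from 127, 129 and 160 counts to 20905, 43344 and 62087 (log2 fold change 8.04, SE 0.31, adjusted p = 1.84e-08). NOTCH3, 136 kb from SLC1A6, rose from 1368, 1506 and 1557 counts to 26759, 45448 and 59232 (log2 fold change 4.70, SE 0.18, adjusted p = 1.94e-08). Both were lowest in VprBP sh replicate 1, as SLC1A6 was.

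**Figure D4:**
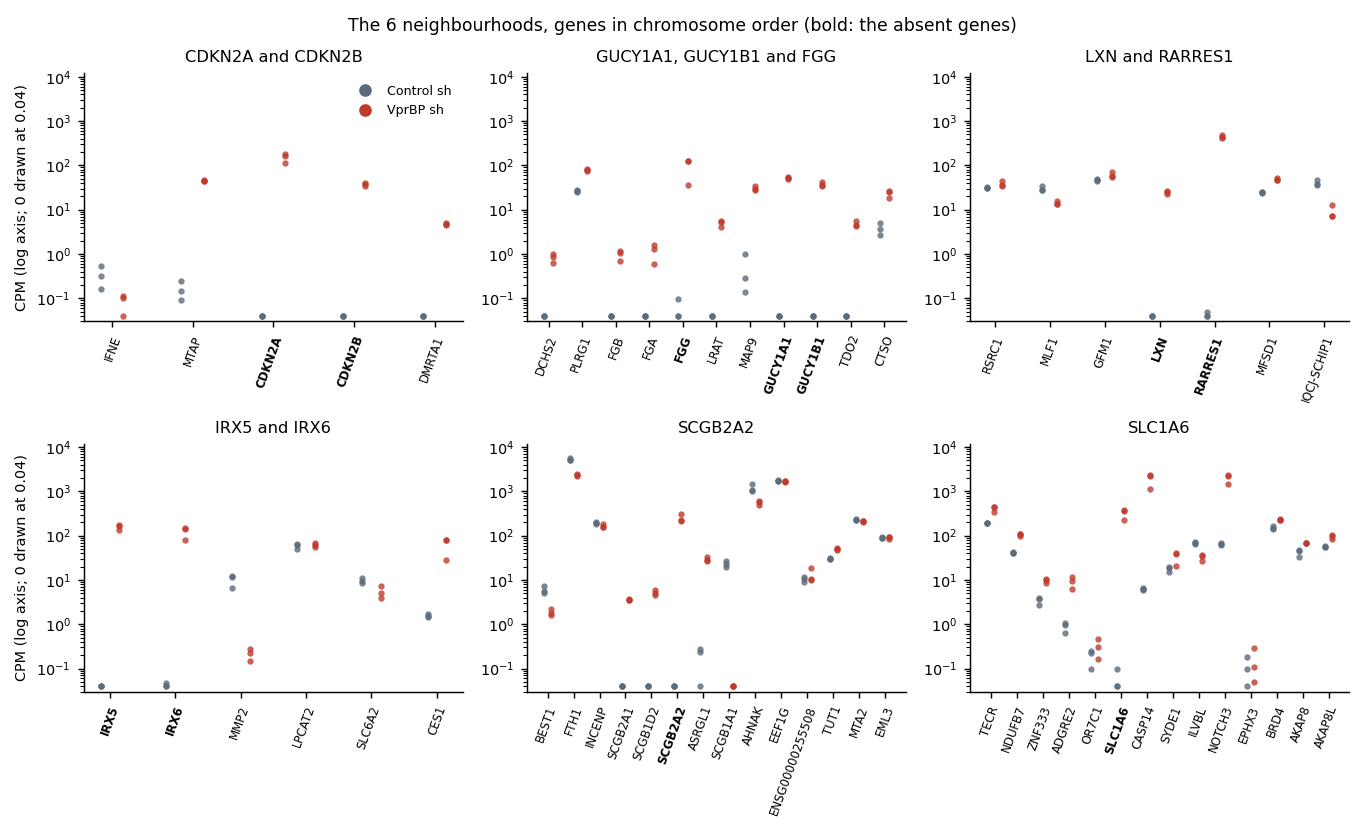
Level in CPM on a log axis, with 0 drawn at 0.04, of the nearest protein-coding genes in 6 neighbourhoods in chromosome order, with 1 point per sample, Control sh grey and VprBP sh red, and genes of the set in bold. Neighbours of CDKN2A, FGG and the GUCY1A1 pair that are near zero in Control sh are read in VprBP sh, while those of LXN and RARRES1 are read in both groups.

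The nearest genes of several other members also had no Control sh count. CRISP2, 13.8 kb from CRISP3 and best known in testis, had 31, 32 and 43 counts in VprBP sh (at least 12.2-fold higher, adjusted p = 2.37e-05). GLB1L3, 12.3 kb from GLB1L2, had 27, 23 and 40 (at least 10.3-fold, adjusted p = 4.09e-05). ZIC4, which overlaps ZIC1 on the opposite strand, had 71, 84 and 86 (at least 28.1-fold, adjusted p = 5.91e-06). All 3 were low in VprBP sh too, at under 5 CPM on average.

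By fitted fold change, the 10 highest called neighbours with no overlap between groups were SCGB1A1, SCGB1D2, LRAT, TDO2 and DMRTA1, described above, with PPP1R1A, IL1RAPL2 and SBK1 higher and GTSF1 and INSYN2B lower. All but SBK1 had a group at 0 counts, so that their fitted folds depend on the prior count and this order is not one of measured size. PPP1R1A, an inhibitor of protein phosphatase, and GTSF1, a factor of piRNA silencing, both lie near MUCL1. PPP1R1A had 0 counts in Control sh and 159, 137 and 190 in VprBP sh (at least 56.3-fold higher, adjusted p = 1.22e-06). GTSF1 had the reverse, 316, 351 and 419 Control sh counts and 0, 0 and 0 VprBP sh counts (at least 113-fold lower, adjusted p = 9.85e-08). IL1RAPL2, an interleukin receptor relative near NRK, went from 0 counts in each sample to 104, 147 and 235 (at least 54.3-fold, adjusted p = 2.71e-06), and INSYN2B near FOXI1 went from 140, 86 and 113 counts to 0 in each (at least 35.6-fold lower, adjusted p = 6.43e-06). SBK1, a kinase near NUPR1 and also the gene just outside the limit of 3 counts, had 4, 0 and 0 Control sh counts and 896, 1364 and 1845 VprBP sh counts.

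Genes with the same symbol stem as a member were read as its relatives. Of the 56 genes 53 have such a stem, and 32 of their 48 stems had another gene in the table, in all 249 relatives of which 206 were tested. In VprBP sh 61 were called higher, or 29.6%, and 45 lower, or 21.8% (median log2 fold change 0.10). All relatives were protein-coding, and of all protein-coding genes tested 22.7% were called higher and 21.7% lower, with a median of 0.06. With DESeq2 the counts were 61 higher and 66 lower. The broad stems ATP and LRRC made up 106 of the 206, and without them 39 of 100 were higher and 30 lower.

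Families of the transcription factors went in both directions. IRX3, of the same Iroquois cluster as IRX5, rose from 77, 53 and 62 counts in Control sh to 4605, 6454 and 8396 (log2 fold change 6.48, SE 0.19, adjusted p = 3.63e-09), so that the 4 Iroquois genes of the table, 3 of them chosen for it, were higher in VprBP sh. FOXI3 had 0 counts in Control sh and 71, 69 and 91 in VprBP sh (at least 26.7-fold higher, adjusted p = 4.94e-06). ZIC5 rose from 27, 42 and 43 to 212, 155 and 246 (log2 fold change 2.31, SE 0.22, adjusted p = 9.37e-06), while ZIC2 had 329, 414 and 416 Control sh counts and 264, 373 and 431 VprBP sh counts (log2 fold change -0.28, SE 0.14, adjusted p = 0.0897) and was not called. TWIST1 moved against TWIST2, from 63, 68 and 59 counts to 0 in each VprBP sh sample (at least 19.9-fold lower, adjusted p = 7.35e-06). Among SOX genes, SOX4, SOX9, SOX12 and SOX18 were called higher and SOX6, SOX7 and SOX15 lower, with SOX15 going from 2080, 2510 and 2828 counts to 3, 16 and 23 (log2 fold change -7.62, SE 0.26, adjusted p = 9.45e-09). SIM2, PAX8, PAX9 and BATF2 were called lower, by 1.02, 2.53, 1.34 and 2.67 on the log2 scale. Relatives of the factors were thus called in both directions.

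Relatives in the other roles also went both ways. All 6 tested genes of the PCDHA stem besides PCDHA3 were called higher, although these records share exons and are not independent. PCDHA11 had the most counts of them, 71, 54 and 82 in Control sh and 492, 626 and 887 in VprBP sh (log2 fold change 3.10, SE 0.16, adjusted p = 1.32e-07). Among genes of the SLC1A stem, SLC1A1 and SLC1A2 were called higher and SLC1A4 lower. SLC1A2, the main glutamate transporter of astrocytes, went from 1, 0 and 0 counts to 64, 141 and 189 (adjusted p = 3.05e-06). Among KCNK channels 3 were higher and 3 lower, and among phospholipases 3 and 5, with PLA2G4A going from 284, 416 and 530 counts to 0 in each VprBP sh sample (at least 126-fold lower, adjusted p = 4.48e-07). CAPN7, CAPN8, CAPN9 and CAPN14 were higher and CAPN1 and CAPN12 lower. EPHA1 and EPHA2, the relatives of EPHA10, were lower and EPHA4 was higher. The syntrophin SNTB2 and the formin DIAPH3 were lower, by 1.59 and 1.56 on the log2 scale. RARRES2, the chemoattractant chemerin, rose from 1, 1 and 1 counts to 9, 11 and 18 (log2 fold change 3.34, SE 0.51, adjusted p = 2.17e-04).

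Around CDKN2A and CDKN2B, 21 further genes of the INK4 and CIP families and their cell cycle partners were read, and 7 were called higher and 6 lower (median log2 fold change 0.13). Over all genes tested, 24.5% were called higher and 22% lower (median 0.08). RB1, the retinoblastoma protein that CDK4 and CDK6 inactivate, fell from 1821, 2402 and 2677 counts in Control sh to 29, 15 and 23 in VprBP sh (log2 fold change -6.82, SE 0.21, adjusted p = 5.44e-09). Cyclin D1 (CCND1) fell from 107776, 107686 and 122000 counts to 4059, 5188 and 7293 (log2 fold change -4.53, SE 0.11, adjusted p = 1.65e-09), and cyclin D2 (CCND2) from 1152, 823 and 1002 to 0 in each sample (at least 312-fold lower, adjusted p = 1.66e-07). CDK6 also fell (log2 fold change -3.08, SE 0.14, adjusted p = 5.98e-08), and CDK4 had 2091, 2367 and 2920 Control sh counts and 1591, 1874 and 2546 VprBP sh counts (log2 fold change -0.45, SE 0.08, adjusted p = 7.88e-04), lower by less than the 2-fold limit. On the inhibitor side, CDKN2C rose from 116, 153 and 201 to 1454, 1839 and 2501 (log2 fold change 3.47, SE 0.14, adjusted p = 3.06e-08) and CDKN2D rose by 1.26 on the log2 scale, while CDKN1A, which encodes the inhibitor p21, fell from 3010, 2050 and 2325 to 216, 280 and 396 (log2 fold change -3.24, SE 0.20, adjusted p = 3.53e-07). CCNE1, CCNE2, E2F2 and E2F3 were each higher, by 1.27 to 2.37 on the log2 scale. All 4 INK4 genes, 2 of them chosen for it, were higher in VprBP sh.

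**Figure D5:**
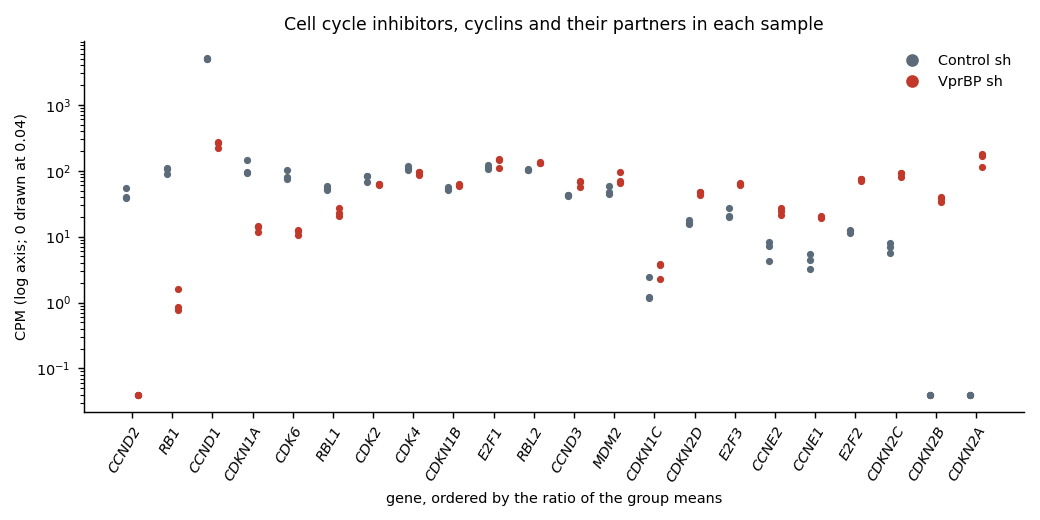
Level in CPM on a log axis, with 0 drawn at 0.04, of 22 cell cycle inhibitors, cyclins and partners in each of the 6 samples, ordered by the ratio of the group means, each with 0.05 CPM added. CDKN2A and CDKN2B are at 0 in Control sh and are read in VprBP sh, CCND2 shows the reverse, and RB1 is lower in VprBP sh.

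Other genes of glandular secretion were mixed. Of 11 tested secretory genes outside the set 5 were called higher and 5 lower, where 24.5% and 22% of all genes tested were. AZGP1, the zinc alpha glycoprotein of luminal breast and prostate, rose from 14, 2 and 6 counts to 17693, 19419 and 26632 (log2 fold change 11.31, SE 0.28, adjusted p = 1.62e-09), AGR2 from 14, 3 and 3 to 314, 295 and 373 (log2 fold change 5.44, SE 0.39, adjusted p = 1.17e-06) and MUC1 from 344, 327 and 368 to 2098, 3049 and 4128 (log2 fold change 2.98, SE 0.14, adjusted p = 5.66e-08). WFDC2 fell from 5270, 3501 and 4205 to 18, 31 and 36 (log2 fold change -7.43, SE 0.26, adjusted p = 1.02e-08), and MUC16, MUC20, PIGR and SCGB1A1 were also lower. Among luminal epithelial transcription factors outside the set, 8 of 24 tested were higher and 8 lower. GATA3, a luminal determinant, rose from 7, 1 and 0 counts to 1580, 1334 and 1873 (log2 fold change 9.02, SE 0.38, adjusted p = 3.52e-08), SPDEF, a factor of secretory cells, from 11, 14 and 26 to 4888, 6373 and 8711 (log2 fold change 8.44, SE 0.19, adjusted p = 1.11e-09), and FOXA1 by 2.02 on the log2 scale. GATA2, GATA6, FOXA2, FOXQ1 and KLF5 were called lower, FOXA2 from 72, 73 and 88 counts to 0 in each VprBP sh sample. Outside the set, both lists thus held as many genes called lower as higher.

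PXDN was read in VprBP sh, where most other tested basement membrane genes were lower. Of 18 tested genes of collagen IV, laminins, nidogen and the lysyl oxidases outside the set, 14 were called lower and 1 higher (median log2 fold change -3.21). The shares over all genes tested were 22% lower and 24.5% higher. COL4A1 and COL4A2, the chains that peroxidasin crosslinks, fell by 3.27 and 4.98 on the log2 scale, and NID1 went from 2711, 2436 and 2808 counts to 0 in each VprBP sh sample (at least 831-fold lower, adjusted p = 8.77e-09). COL4A5 was the one called higher (log2 fold change 1.85, SE 0.11, adjusted p = 2.89e-07).

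SELENBP1 was read beside 24 tested enzymes of aldehyde, aldo-keto and alcohol metabolism, of which 11 were called higher and 9 lower (median log2 fold change 0.09). CYP4B1 rose from 3, 4 and 9 counts to 2503, 3285 and 4746 (log2 fold change 9.16, SE 0.22, adjusted p = 1.47e-09) and ALDH1A1 from 8, 7 and 10 to 4827, 4614 and 6243 (log2 fold change 9.13, SE 0.14, adjusted p = 2.47e-10), while GSTP1 fell from 14132, 13039 and 15505 to 12, 9 and 4 (log2 fold change -10.86, SE 0.25, adjusted p = 1.11e-09). CYP4B1 and ALDH1A1 were above the limit of 3 counts in at least 1 Control sh sample and so were not members. Of 25 tested interferon-stimulated genes 18 were lower and 2 higher, and of 23 cadherins and claudins 11 were lower and 6 higher, among the latter CLDN3 from 17, 9 and 3 counts to 2211, 3922 and 5032 (log2 fold change 8.38, SE 0.37, adjusted p = 4.30e-08). Of 12 tested cancer-testis genes of the X chromosome 4 were higher and 3 lower. For these lists too, the shares over all 16756 genes tested were 24.5% higher and 22% lower.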

How the data were processed

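Per the labels and the study's methods, the authors sequenced RNA of 3 Control sh and 3 VprBP sh samples, aligned single-end reads to hg38 with STAR and, after gene-level quantification in Partek Flow, deposited estimated counts, neither normalized nor pooled, for 21494 genes with a sum of at least 10. The labels name a SMARTER kit and the methods a strand-specific KAPA kit. Samples were grouped by the titles in the labels. The tests were planned for counts, so every estimated count was rounded to the nearest whole number first, and CPM was the deposited value divided by the column total. The 56 genes met the limits of 3 counts (any Control sh sample) and 20 CPM (VprBP sh mean). The members and gene lists were chosen with earlier results of these data known, so no list is independent evidence.

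VprBP sh was compared with Control sh with edgeR 4.0.16 (limma 3.58.1, R 4.3.3): quasi-likelihood test, upper quartile factors (quantile 0.75), filterByExpr with a minimum of 10 counts, Benjamini-Hochberg adjustment over all 16756 genes tested, and calls at an adjusted p under 0.05 and a fold change over 2. The test was tried on simulated data. The SE of a log2 fold change is its size over the root of its F statistic. A fold against a group at 0 set the mean CPM of the other group against 3 counts in each library. It is a lower bound for that mean only and leaves out the spread and counting error of the other group. Neighbours were protein-coding genes within 500 kb, by gene ends. Gene starts and ends came from the deposited table, exons and overlapping genes from GENCODE 44, and promoters from RefSeq. Named genes were DCAF1, the members by role (values in every sample for the 20 highest, for families, pairs, list genes and those at the limits), the nearest neighbours and relatives, the 10 neighbours with the largest fold change, and genes of the lists. Some genes that this rule names are not reported here. Single genes and loci beyond this rule were chosen after their values were seen. Alternatives were other factors (TMM, library size, DESeq2 1.42.0), other filters, limits and windows, a replicate block, replicates left out and replicates 2 and 3 summed. Python 3.11.15 with pandas 2.3.3 and numpy 2.4.6 was used. The totals of each sample, given with the results, set the limit of detection of 3 counts.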

Additional observations from a re-analysis of the deposited data

Results flagged for a closer look

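Signal was found in rows outside the protein-coding genes that meet the same limits of 3 counts and 20 CPM. There were 6 such rows. CPHL1P, a unitary pseudogene of a ceruloplasmin relative on chromosome 3, had 0, 1 and 0 counts in Control sh and a mean of 68.9 ± 3.52 CPM (SD, n = 3) in VprBP sh. C5orf38, a long noncoding RNA gene, had 0 counts in each Control sh sample and 45.5, 61.9 and 56.1 CPM in VprBP sh, a mean of 54.5 CPM. ENSG00000289075, also a long noncoding RNA gene, had 0 counts and a mean of 37.6 CPM. Both lie next to IRX2 on chromosome 5, IRX2 being at chr5:2745845-2751677, C5orf38 at chr5:2752131-2755397 and ENSG00000289075 at chr5:2756465-2758578, so that 3 genes of this stretch met the limits. TP73-AS1 had 0 counts and a mean of 32.6 CPM. SSPOP had 0, 0 and 1 counts and a mean of 26.9 CPM, with 17.8, 31.6 and 31.2 CPM in VprBP sh replicates 1, 2 and 3. ENSG00000273328 had 3, 0 and 1 counts and a mean of 21.1 CPM. As for the 56 genes, these values chose the rows and were given no test.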

How the results depend on the processing

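The size of the set depended on its limits. It held 34 genes with no count allowed in any Control sh sample and 99 with up to 10 counts, and 94 with a limit of 10 CPM and 29 with 50 CPM. With CPM from upper quartile, TMM or DESeq2 factors it held 54, 53 and 52 genes, with 20 CPM asked of the lowest VprBP sh sample 50, and with 1 replicate left out 55 to 68, the most without Control sh replicate 1. Scaled by these 3 factors the mean levels of 13, 23 and 28 of the 56 genes were lower by more than their SD. The number of position groups was 4 with a limit of 500 kb and 6 with 2 Mb.

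Asking 10 counts or more of all 6 samples removes genes near zero in either group. This gave 2694 genes higher and 1996 lower of 13103 tested, 93 neighbours higher of 324, 36 relatives higher and 26 lower of 159, 29 list genes higher and 48 lower of 114, and 8 marker genes lower of 24, against 4097, 3681, 159, 61, 45, 48, 75 and 24 in the comparison as reported. Neighbours within 250 kb were higher in 96 and lower in 33 of 225 tested, and within 1 Mb higher in 219 and lower in 117 of 665. Without the stems ATP and LRRC, an alternative chosen after seeing the data like the neighbour counts without PCDHA3, without overlaps or without relatives (125 of 351, 149 of 399 and 146 of 396 higher), 39 relatives were higher. The fold change of DCAF1 was -0.37 with library size alone, with an adjusted p of 0.0851, while its adjusted p under the 9 other settings ran from 0.000188 to 0.0482.

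With 1 replicate left out, the counts over all genes were 4063 to 4239 higher and 3755 to 3985 lower, for neighbours 157 to 163 and 58 to 60, for relatives 60 to 64 and 45 to 52, for lists 48 to 52 and 71 to 75, for markers 6 to 8 and 23 to 24, and DCAF1 was at -0.82 to -0.46. The balance of higher and lower calls over all genes depended on the scaling: it was 4097 to 3681 as reported, 4077 to 4887 with DESeq2, 3747 to 3938 with TMM, 4899 to 3248 with library size alone and 4788 to 4787 with no filter on low counts. For relatives it was 61 to 45 as reported, 61 to 66 with DESeq2, 57 to 48 with TMM, 69 to 41 with library size alone and 66 to 64 with no filter. For neighbours it was 164 to 66 with DESeq2, 148 to 61 with TMM and 178 to 54 with library size alone. Over all genes the median log2 fold change was 0.08 (upper quartile factors), -0.01 (TMM), -0.04 (DESeq2) or 0.29 (library size alone). Samples with the same number did not deviate together (correlations -0.18, -0.06 and -0.12 over 12137 genes). Samples with unlike numbers gave -0.13 to 0.16. These are deviations from a mean of 3 samples, so they cannot tell whether samples were prepared in pairs. A replicate block gave 4031 genes higher and 3655 lower, 157 and 59 neighbours, 59 and 45 relatives, and -0.60 for DCAF1. Shares of promoters by motif or CpG density, planned as a further result, were not run because 71.4% of the genes had a sequence. Genes at a few counts per sample, FGA and FGB among them, are limited by depth.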
